A study of Mus musculus with 9 samples.

Results

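The RNAs described here are 10 long noncoding RNAs of the mouse retina, *Malat1*, *Neat1*, *Meg3*, *Rian*, *Mirg*, *Miat*, *Tug1*, *Snhg11*, *Six3os1* and *Vax2os*. They are taken by symbol from the 25239 gene names in the deposited tables, by a rule that holds no measured value, though earlier results of these data were known when the list was made. RefSeq lists all 10 as lncRNA. The retinas came from mice at postnatal day 42 on the C57BL/6J background, and a pair of retinas made 1 strand-specific, poly(A)-selected library. The genotypes were wild type (+/+), Rbpms-CreERT2/+ (Cre/+) and Rbpms-CreERT2/CreERT2 (Cre/Cre), with 3 libraries each. In the knock-in allele a P2A-CreERT2 cassette, a self-cleaving peptide and a tamoxifen-inducible Cre recombinase, is fused in frame to the end of the *Rbpms* coding sequence. All animals with the allele descend from genome-edited founders, no tamoxifen is named for these retinas, and the labels do not give the sex.

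Long noncoding RNAs are transcribed and often spliced like messenger RNAs but are not translated into known proteins. *Malat1*, *Neat1* and *Miat* stay in the nucleus. *Malat1* gathers in nuclear speckles, where splicing factors are stored, *Neat1* is the scaffold of paraspeckles, and *Miat*, also known as Gomafu or Rncr2, sits in other nuclear bodies of neurons. *Meg3*, *Rian* and *Mirg* are expressed from the maternal copy of the imprinted Dlk1-Dio3 cluster and carry small nucleolar RNAs and microRNAs in their bodies or beside them. *Six3os1* and *Vax2os* start beside the homeobox genes *Six3* and *Vax2* and run the opposite way, *Tug1* was first described in the developing retina as a transcript upregulated by taurine, and *Snhg11* is a host gene of a small nucleolar RNA.

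All positions are those of mm10 in the deposited tables. *Malat1* covers chr19:5795690-5802672 on the minus strand, and *Neat1* covers chr19:5824710-5845480 on the same strand, 22.0 kb away. The imprinted RNAs follow each other on the plus strand, *Meg3* at chr12:109540996-109571729, *Rian* at chr12:109603945-109661711 and *Mirg* at chr12:109734981-109749457. *Miat* lies at chr5:112213228-112228948 and *Tug1* at chr11:3639785-3648814, both on the minus strand. *Snhg11* lies at chr2:158375713-158386474 on the plus strand. *Six3os1* occupies chr17:85601932-85618396 on the minus strand, and *Six3* begins 2438 bases past its start on the plus strand. *Vax2os* occupies chr6:83692804-83712201 on the minus strand, and the plus-strand gene *Vax2*, chr6:83711239-83738313, overlaps its first 963 bases. Whether the quantification used the strand is not given in the sources used here, so reads in that overlap cannot be told apart.

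The promoters of 4 of the RNAs are printed first. Each runs from 250 bases before to 50 bases after the RefSeq start, 5′ to 3′ along the RNA's strand (GRCm38.p6), with capitals at each match to TATAAA, the TATA box, or GGGCGG, the GC box, on either strand. They are *Meg3* (chr12:109540746-109541045, plus), *Miat* (chr5:112228899-112229198, minus), *Six3os1* (chr17:85618347-85618646, minus) and *Vax2os* (chr6:83712152-83712451, minus).
Meg3: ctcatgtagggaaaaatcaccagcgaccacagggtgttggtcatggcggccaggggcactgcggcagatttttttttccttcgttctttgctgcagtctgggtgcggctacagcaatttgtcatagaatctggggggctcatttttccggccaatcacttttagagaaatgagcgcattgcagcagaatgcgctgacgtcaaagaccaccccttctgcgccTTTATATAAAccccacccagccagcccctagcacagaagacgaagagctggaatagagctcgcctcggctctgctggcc
Miat: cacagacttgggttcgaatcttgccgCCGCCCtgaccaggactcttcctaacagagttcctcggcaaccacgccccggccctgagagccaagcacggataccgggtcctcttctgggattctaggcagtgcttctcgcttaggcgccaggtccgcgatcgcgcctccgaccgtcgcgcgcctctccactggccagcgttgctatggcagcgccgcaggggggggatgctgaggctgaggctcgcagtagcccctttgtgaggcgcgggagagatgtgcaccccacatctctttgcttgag
Six3os1: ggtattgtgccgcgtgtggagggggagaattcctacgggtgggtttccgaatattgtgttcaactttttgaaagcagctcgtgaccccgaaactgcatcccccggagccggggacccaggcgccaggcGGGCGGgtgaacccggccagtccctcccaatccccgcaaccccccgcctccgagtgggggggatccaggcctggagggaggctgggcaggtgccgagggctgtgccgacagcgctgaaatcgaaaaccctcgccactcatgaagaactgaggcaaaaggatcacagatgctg
Vax2os: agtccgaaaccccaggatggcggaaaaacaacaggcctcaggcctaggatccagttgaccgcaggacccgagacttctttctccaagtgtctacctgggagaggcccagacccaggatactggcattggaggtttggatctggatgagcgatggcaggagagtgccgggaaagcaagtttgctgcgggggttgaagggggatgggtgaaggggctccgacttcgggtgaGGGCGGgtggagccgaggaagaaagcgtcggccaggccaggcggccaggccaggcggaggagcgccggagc

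A promoter was found in the table for 9 of the 10 RNAs, with *Neat1* the one without. *Meg3* held the only TATAAA, in overlapping matches that begin 29 and 25 bases before the start, and 13.6% of the 32851 promoters in the table hold that motif. GGGCGG occurred in 4 of the 9, *Miat*, *Tug1*, *Six3os1* and *Vax2os*, against 35.7% of all promoters. In *Six3os1* it lies 122 bases and in *Vax2os* 21 bases before the start. The letters TAATCC, which the photoreceptor factor CRX binds, TAATTA, a homeodomain motif, and CACGTG, the E-box, were searched on both strands and were in none of the 9, against 7.06%, 5.29% and 7.15% of all promoters.

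The tables give TPM (a library's transcripts scaled to a fixed sum, a level per transcript length), FPKM and read coverage, and no counts. TPM of *Rbpms* itself, which encodes the tagged RNA-binding protein of ganglion cells, averaged 41.7 ± 2.85 among +/+ libraries, 32.2 ± 0.888 among Cre/+ libraries and 21.0 ± 2.80 among Cre/Cre libraries (SD, n = 3 each), and it was the 1 gene called in Cre/Cre against +/+ (log2 fold change -0.96, limma adjusted p = 0.000581). The rod, cone, bipolar, amacrine, horizontal, ganglion and Mueller cell marker lists were detected in all libraries. The libraries held 4.05 to 4.65 aligned gigabases. Cre/Cre replicate 1 stood apart, with 9.21% of its TPM in the ribosomal precursor Rn45s against at most 0.336% in the other libraries, and values of the 10 RNAs that it moved most are also given without it. *Xist*, the RNA of the inactive X chromosome in females, was at most 3.16 TPM in 3 libraries (1 of Cre/+ and 2 of Cre/Cre) and at least 516 TPM in the other 6, so the sexes were not balanced over the genotypes.

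All 10 RNAs had a mean above 1 TPM and were tested, and together they made up 0.315% to 0.401% of the TPM of a library. In +/+ retinas *Malat1* was first with 842 ± 265 TPM, ranked 95 among the 15198 tested genes, and *Meg3* with 789 ± 30.9 and *Snhg11* with 756 ± 65.9 TPM followed (SD, n = 3 each). These 3 overlapped between libraries and cannot be put in order. *Vax2os* was next with 463 ± 13.8 TPM, which set it among the top 1.71% of tested genes and 7.97 ± 0.872 times above *Vax2* (SD, n = 3). *Rian* had 184 ± 9.84 TPM, *Six3os1* 93.4 ± 1.03, *Tug1* 73.4 ± 4.86 and *Miat* 51.6 ± 1.79, and each of these steps, from *Snhg11* down to *Neat1*, separated all +/+ libraries of one RNA from those of the next. *Neat1* with 33.9 ± 13.1 TPM and *Mirg* with 18.99 ± 0.400 TPM overlapped. This order is one of TPM and was not kept in mean reads over each base per aligned gigabase, explained below for *Neat1*. There *Vax2os* averaged 24.4 in +/+, below *Rian* with 53.9. *Six3os1* averaged 12.2, below *Tug1* with 18.4 and *Miat* with 15.1.

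**Figure D1:**
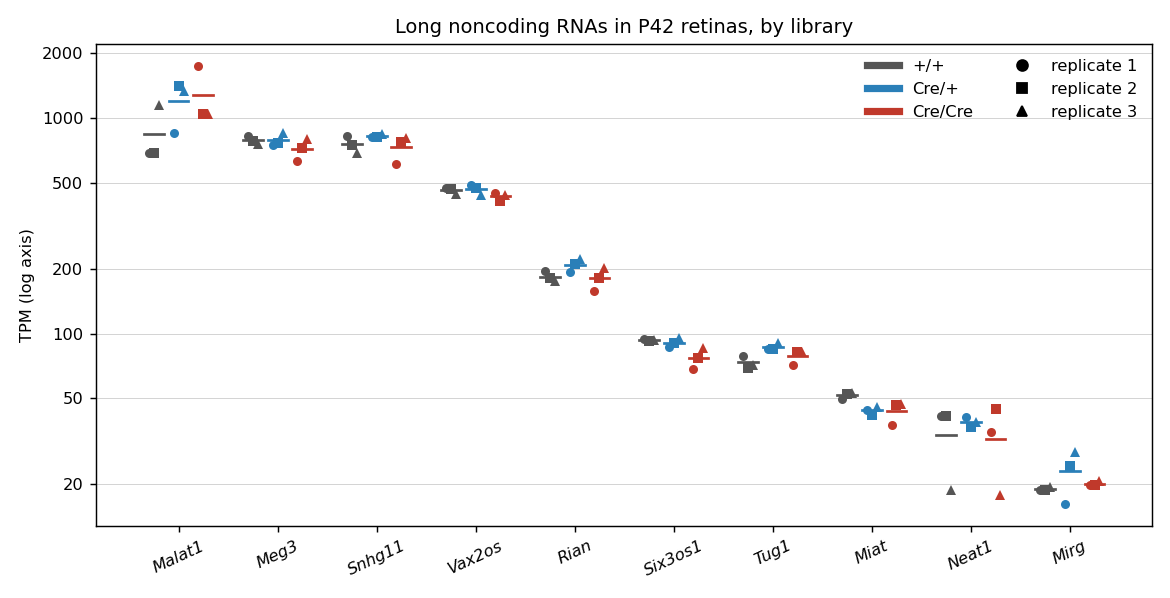
TPM on a log axis of the 10 long noncoding RNAs, in order of their mean in +/+, with 1 point per library, colour for genotype, symbol for replicate number and a line at the mean of 3 libraries. *Malat1* and *Neat1* spread widely within a genotype, and the Cre/Cre libraries of *Six3os1* lie below all 3 +/+ libraries.

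None of the 10 RNAs passed an adjusted p of 0.05 in either knock-in genotype against +/+, and Cre/+ and Cre/Cre share those control libraries. In Cre/+ the limma test called 0 of 10, and 2 of 10 had an unadjusted p under 0.05, *Tug1* higher and *Miat* lower. Of all tested genes 0.00658% were called there, 4.9% were higher and 5.82% lower at an unadjusted p under 0.05. In Cre/Cre 0 of 10 were called, and 2 of 10 had an unadjusted p under 0.05, *Six3os1* and *Miat*, both lower. Of all tested genes 0.00658% were called in that comparison, 1.58% were higher and 5.39% lower at an unadjusted p under 0.05. The median log2 fold change of the 10 was 0.16 in Cre/+, beside 0.00 over all tested genes, and -0.06 in Cre/Cre, beside -0.02. Without Cre/Cre replicate 1 the median in Cre/Cre was 0.0093, beside 0.02 over all tested genes, and at an unadjusted p under 0.05 *Tug1* was higher and *Six3os1* lower. Cre/Cre against Cre/+ also called 0 of 10 (0.0132% of tested genes), as did the F test over the 3 genotypes (0.0132%) and the trend over 0, 1 and 2 knock-in alleles (0.00658%). At an unadjusted p under 0.05 these gave 2, 3 and 2 of the 10, beside 1000, 1312 and 948 of the 15198 tested genes. The smallest adjusted p of any of the 10 was 0.396, for *Tug1* in Cre/+. The 3 libraries of a genotype were separate samples. The p-values set a difference against the spread within genotypes, pooled over the 3 genotypes and moderated by a prior from all tested genes.

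**Figure D2:**
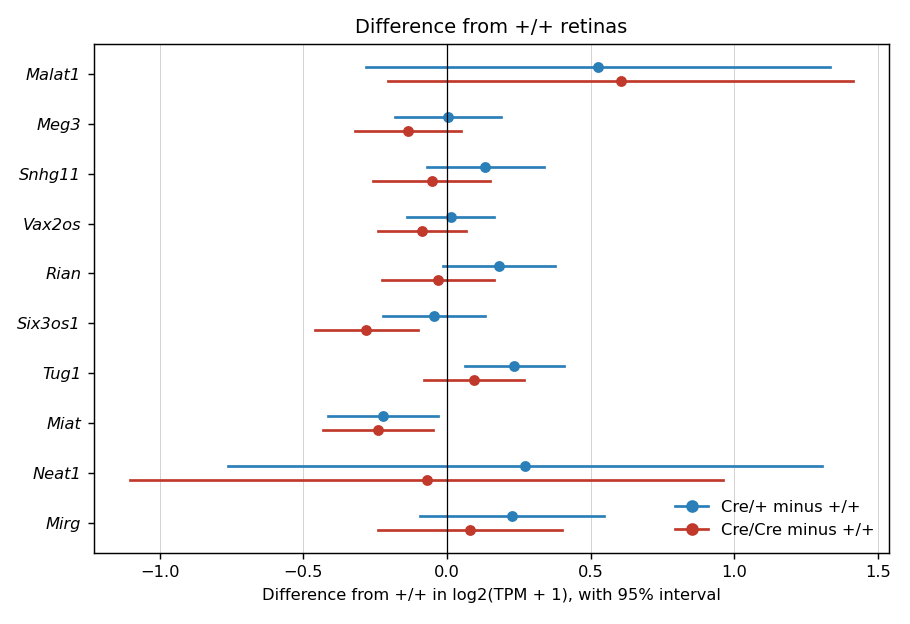
Difference from +/+ in log2(TPM + 1) for each RNA, with points for the estimate and lines for the 95% interval of the limma fit, Cre/+ in blue and Cre/Cre in red. The intervals of *Malat1* and *Neat1* are the widest, and those of *Miat* in both genotypes, *Tug1* in Cre/+ and *Six3os1* in Cre/Cre leave out 0 before any adjustment over genes.

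*Six3os1*, also called Rncr1, is transcribed away from *Six3*, the eye-field homeobox gene, and has been described as a partner of the SIX3 protein and its cofactors in the developing retina. Its TPM in +/+ was 94.2, 92.2 and 93.7, the tightest of the 10 within that genotype, with an SD of 1.11% of the mean. It was 86.2, 90.1 and 95.2 in Cre/+ and 68.6, 76.7 and 85.7 in Cre/Cre. All Cre/Cre libraries lay below all +/+ libraries, as in 8.05% of tested genes, and below all Cre/+ libraries, as in 7.23%, while Cre/+ and +/+ overlapped. Cre/Cre against +/+ gave a log2 fold change of -0.28 ± 0.08 (SE, 95% interval -0.46 to -0.10), a level 17.6% lower on that scale, with a limma adjusted p of 0.543. The interval leaves out a decrease of 2-fold. Between Cre/Cre and Cre/+ it was -0.23 ± 0.08 (limma adjusted p = 0.739). Without Cre/Cre replicate 1, the lowest library, the value against +/+ was -0.20 ± 0.07 (limma adjusted p = 0.45).

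*Six3* had 87.1, 99.1 and 87.6 TPM in +/+, 91.6, 99.8 and 97.0 in Cre/+, and 73.3, 91.8 and 78.1 in Cre/Cre. Its Cre/Cre libraries overlapped those of +/+, with a log2 fold change of -0.17 ± 0.09 (limma adjusted p = 0.765). The divergent pair was of similar level in each library, with a ratio of *Six3os1* to *Six3* between 0.836 and 1.10 over 9 libraries. *Six3os1* has 8 RefSeq transcripts, and its coverage share, explained below for *Neat1*, stayed between 0.436 and 0.470.

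*Vax2os*, the antisense partner of the ventral homeobox gene *Vax2*, is known in the retina as an RNA of photoreceptor precursors. It was the steadiest of the 10, with a spread within genotype of 4.42% of its mean, and 92.3% of the 8585 genes in the same range of TPM were more variable. Its TPM was 472, 469 and 447 in +/+, 488, 475 and 439 in Cre/+, and 452, 415 and 442 in Cre/Cre, and the genotypes overlapped. Against +/+ the log2 value differed by 0.01 ± 0.07 (95% interval -0.14 to 0.16) in Cre/+ and -0.09 ± 0.07 (-0.24 to 0.07) in Cre/Cre. The coverage share of *Vax2os*, explained below for *Neat1*, was 0.179 to 0.180 over all libraries. Its TPM, and its ratio to *Vax2*, thus rest largely on assigned transcripts that are short next to its exonic length. *Vax2* had 54.1, 57.5 and 63.7 TPM in +/+, 50.3, 53.0 and 55.5 in Cre/+, and 44.5, 49.6 and 50.7 in Cre/Cre, where its libraries did not overlap +/+ (log2 fold change -0.27 ± 0.08, limma adjusted p = 0.558). Of tested genes 8.05% were lower without overlap in that comparison. Of 12 eye-field and ventral homeobox genes 11 were tested. None was called, and at an unadjusted p under 0.05 *Crx*, the photoreceptor homeobox gene, was higher and *Rax* lower in Cre/+, and *Rax*, *Vax2* and *Sox2* were lower in Cre/Cre. The median of the 11 was 0.06 in Cre/+ and -0.11 in Cre/Cre, beside 0.00 and -0.02 over all tested genes. At that unadjusted p, 4.9% of all tested genes were higher and 5.82% lower in Cre/+. In Cre/Cre these shares were 1.58% and 5.39%. Without Cre/Cre replicate 1 the median in Cre/Cre was -0.0043, beside 0.02 over all tested genes. *Rax*, *Sox2* and *Vax2* were then still lower, against 3.58% of all tested genes, and 1 of the 11 was higher.

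*Miat* is a nuclear RNA of neurons that binds splicing factors such as QK, SF1 and CELF3 and has been tied to retinal cell fate. Its TPM was 49.6, 52.3 and 52.9 in +/+, 44.3, 42.04 and 45.8 in Cre/+, and 37.7, 46.5 and 47.1 in Cre/Cre. Every knock-in library of either genotype lay below every +/+ library. Libraries did not overlap and were lower in 10.3% of tested genes in Cre/+ and in 8.05% in Cre/Cre. Its log2 fold change was -0.22 ± 0.09 (95% interval -0.42 to -0.03, limma adjusted p = 0.411) in Cre/+ and -0.24 ± 0.09 (-0.43 to -0.05, limma adjusted p = 0.655) in Cre/Cre. The knock-in genotypes themselves differed by -0.02 ± 0.09 with a 95% interval from -0.21 to 0.18. Without Cre/Cre replicate 1 the value in Cre/Cre was -0.14 ± 0.07 (limma adjusted p = 0.548), and with *Xist* as a covariate it was -0.22 ± 0.11; in both cases its unadjusted p was above 0.05. Of its named binding partners, *Qk* and *Sf1* had an unadjusted p above 0.05 in both genotypes, and *Celf3* had 189 ± 6.48 TPM in +/+ and 163 ± 20.9 in Cre/Cre (limma adjusted p = 0.664).

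*Tubb3*, the neuronal tubulin abundant in ganglion cells, was the gene whose pattern over the 9 libraries was most like that of *Miat* (Pearson r = 0.987, or 0.972 without Cre/Cre replicate 1), followed by *Aurkaip1* and *Cdc37*. Of the 6 ganglion cell markers (*Rbpms*, *Thy1*, *Sncg*, *Nefl*, *Pou4f1* and *Pou4f2*) 1 was called in Cre/Cre, *Rbpms*, the tagged gene itself, and the other 5 had limma adjusted p from 0.133 to 0.664. All 6 were lower at an unadjusted p under 0.05, against 5.39% of all tested genes, with a median log2 fold change of -0.37. Without Cre/Cre replicate 1 these were 5 of 6, against 3.58% of tested genes, with a median of -0.28. Their summed TPM was 1243 to 1270 in +/+, 1169 to 1200 in Cre/+ and 909, 1080 and 1034 in Cre/Cre, where the lowest is replicate 1. From RNA of whole retinas, fewer cells of a type and less RNA per cell cannot be told apart. The authors counted cells positive for RBPMS and for POU4F1 in whole-mount retinas and found no significant difference among the genotypes. They also reported similar RBPMS staining intensity. In their RNA comparison, ganglion cell markers, *Rbpms* among them, did not differ significantly at a fold change over 2 and adjusted p under 0.05. Calls here used the adjusted p alone. With a fold change of at least 2 required as well, 0 genes were called in Cre/Cre against +/+. The part of ganglion cells in the values of *Miat* and *Six3os1* was not tested.

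*Tug1* has been found necessary for normal photoreceptor formation and is bound by Polycomb repressive complex 2. Its TPM was 78.9, 69.6 and 71.8 in +/+, 84.4, 84.5 and 90.4 in Cre/+, and 71.4, 81.7 and 82.2 in Cre/Cre. All Cre/+ libraries were above all +/+ libraries, as in 11.9% of tested genes, and those of Cre/Cre overlapped +/+. The log2 fold change was 0.23 ± 0.08 (95% interval 0.06 to 0.41, limma adjusted p = 0.396) in Cre/+ and 0.09 ± 0.08 (-0.08 to 0.27) in Cre/Cre. The latter was 0.16 ± 0.07 without Cre/Cre replicate 1 (limma adjusted p = 0.508). The difference between the knock-in genotypes was -0.14 ± 0.08 with a limma adjusted p of 0.743. The nearest tested gene, *Morc2a*, starts 0.623 kb from *Tug1* on the other strand and had mean TPM of 50.4, 51.4 and 50.1 in the 3 genotypes. Of 13 genes of Polycomb repressive complex 2 and the Eya family 12 were tested and 0 were called in either genotype. *Suz12*, a core subunit, had 116 ± 9.13 TPM in +/+ and 138 ± 2.18 in Cre/+ (limma adjusted p = 0.409).

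*Malat1* lacks an ordinary poly(A) tail, its 3′ end being cut by RNase P. Its TPM was 690, 689 and 1149 in +/+, 858, 1415 and 1342 in Cre/+, and 1751, 1051 and 1043 in Cre/Cre. Libraries of 1 genotype differed widely, and the highest +/+ library lay above the lowest library of each knock-in genotype. The means were 43.0% and 52.1% above +/+, but the log2 fold changes of 0.53 ± 0.33 (95% interval -0.28 to 1.33) and 0.60 ± 0.33 (-0.20 to 1.41) had limma adjusted p of 0.590 and 0.818. The spread within genotype was 29.8% of the mean, and 0.815% of the genes in the same range of TPM were more variable. The intervals include no change and a rise of over 2-fold in both genotypes, so neither could be shown.

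The single highest *Malat1* value was that of Cre/Cre replicate 1, where Rn45s, the RNase P RNA *Rpph1* and the RNase MRP RNA *Rmrp*, which also lack a poly(A) tail, were 92052, 5196 and 4436 TPM. Without that library the *Malat1* value in Cre/Cre was 0.36 ± 0.32 (limma adjusted p = 0.753). The summed TPM of 31 listed RNAs without a tail was 1893 to 3565 in +/+, 2836 to 4330 in Cre/+ and 1725 to 103099 in Cre/Cre. The part of RNA without a tail in the *Malat1* values was not tested. *Hbb-b2*, a globin gene of red blood cells, was the gene most like *Malat1* in pattern (Pearson r = 0.889 over 9 libraries). Its r was 0.851 without Cre/Cre replicate 1, below that of *Spcs1* at 0.891. The summed TPM of 3 blood markers was 105 to 166 in +/+, 92.5 to 105 in Cre/+ and 271, 143 and 172 in Cre/Cre, where the highest is replicate 1. Of the 18 genes for nuclear speckle and splicing factors all were tested, 0 were called, and the medians were 0.07 in Cre/+ and -0.00 in Cre/Cre. Among them *Clk1*, a kinase of splicing factors, had 361 ± 19.1 TPM in +/+ and 430 ± 11.8 in Cre/+ (limma adjusted p = 0.384).

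*Neat1* makes a short polyadenylated RNA and a long one from the same start, and the long one builds the paraspeckle. Its TPM was 41.6, 41.4 and 18.8 in +/+, 40.8, 36.9 and 38.7 in Cre/+, and 34.8, 44.7 and 17.8 in Cre/Cre. One +/+ and one Cre/Cre library, both with the replicate number 3, were at less than 20 TPM and the other 7 were between 34.8 and 44.7 TPM. Against +/+ its log2 value differed by 0.27 ± 0.43 (95% interval -0.76 to 1.30) in Cre/+ and by -0.07 ± 0.43 (-1.10 to 0.96) in Cre/Cre. The first was -0.10 without +/+ replicate 3 and the second 0.30 without Cre/Cre replicate 3.

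The same tables show that reads over *Neat1* were not fewer in these 2 libraries. Coverage divided by FPKM and by aligned gigabases is called here the coverage share. It is 1 where each transcript that StringTie assigned reads to has the whole exonic length of the gene. The share falls as reads are assigned to shorter transcripts, also where a long one still covers the whole length. It was within 0.01 of 1 in 99.7% to 99.9% of the genes with 1 RefSeq transcript and a coverage above 5. *Malat1*, *Rian*, *Mirg* and *Snhg11*, each with 1 RefSeq transcript, had a coverage share of 1.00 in every library. For *Neat1* the share was 0.379 in +/+ replicate 3 and 0.429 in Cre/Cre replicate 3, and 0.176 to 0.216 in the other 7 libraries. Mean reads over each base per aligned gigabase were 2.08 and 2.21 in these 2 libraries, inside the range of 1.87 to 2.42 of the other 7.

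With the lengths of the GENCODE transcripts that correspond to the RefSeq pair, 3004 and 20771 bases, the shares translate to 27.4% and 33.3% of *Neat1* transcripts being of the long form in these 2 libraries and 3.66% to 8.31% in the others. These percentages depend on the assumption that both lengths were those of the annotation used for the tables. They describe RNA captured by poly(A) selection and are not shares of all *Neat1* RNA in the retina. The percentages correspond to 5.17 and 5.94 TPM of the long form against 1.35 to 2.89 in the others, and to 13.7 and 11.9 TPM of the short form against 31.9 to 42.6. With coverage rescaled to the same sum in every library, the log2 fold change was -0.09 ± 0.12 in Cre/+ and 0.04 ± 0.12 in Cre/Cre. That error is 3.59 times smaller than with TPM. Mean reads over each base per aligned gigabase, without this rescaling, averaged 2.22 in +/+, 2.04 in Cre/+ and 2.22 in Cre/Cre. Whether the 2 libraries held more of the long form or were only assigned so was not tested.

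**Figure D3:**
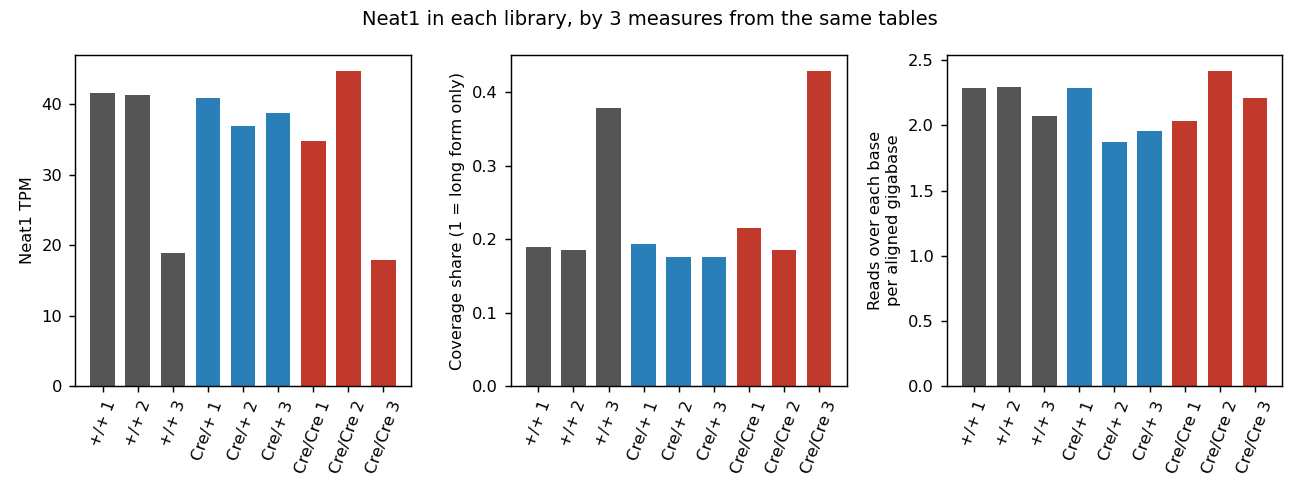
*Neat1* in each of the 9 libraries (genotype and replicate number on the x axis) as TPM, as coverage share, and as mean reads over each base per aligned gigabase, with bars from 0 coloured by genotype. The libraries +/+ 3 and Cre/Cre 3 have less than 20 TPM and a coverage share of 0.379 and 0.429, with reads per base in the range of the other libraries.

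The 15 genes for paraspeckle proteins were all tested and 0 were called. Their medians were -0.01 in Cre/+ and -0.05 in Cre/Cre, and among the abundant ones were *Hnrnpk* and *Ewsr1* with 498 and 495 TPM on average. *Neat1* was at 1.64% to 6.03% of the TPM of its neighbour *Malat1*. Its most similar patterns were those of *Upf3a*, *Gm2004* and *Xrcc4* (Pearson r = 0.909, 0.889 and 0.880 over 9 libraries).

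*Meg3*, *Rian* and *Mirg* lie in that order along 208 kb. *Meg3*, the maternally expressed growth suppressor also called Gtl2, had 823, 781 and 763 TPM in +/+, 752, 765 and 856 in Cre/+, and 634, 725 and 805 in Cre/Cre. *Rian*, also called Meg8, had 195, 181 and 176 TPM in +/+, 193, 210 and 222 in Cre/+, and 157, 182 and 202 in Cre/Cre. *Mirg*, also called Meg9, had 18.7, 18.8 and 19.4 TPM in +/+, 16.2, 24.3 and 28.3 in Cre/+, and 19.8, 19.9 and 20.6 in Cre/Cre. The genotypes overlapped for all 3 RNAs against +/+, except that the Cre/Cre libraries of *Mirg* were all above those of +/+, by little, as in 2.7% of tested genes. *Meg3* differed by 0.00 ± 0.09 in Cre/+ and by -0.13 ± 0.09 in Cre/Cre, *Rian* by 0.18 ± 0.09 and -0.03 ± 0.09, and *Mirg* by 0.23 ± 0.15 and 0.08 ± 0.15 in log2 units, with limma adjusted p from 0.483 to 0.996. Without Cre/Cre replicate 1 *Meg3* in Cre/Cre differed by -0.0459 ± 0.0697 (limma adjusted p = 0.856). *Mirg* in Cre/+ was 0.45 ± 0.11 without Cre/+ replicate 1 (limma adjusted p = 0.2996) and 0.0626 ± 0.14 without Cre/+ replicate 3. Between Cre/Cre and Cre/+ *Rian* had a log2 difference of -0.21 ± 0.09 (limma adjusted p = 0.740).

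Levels were lower from one RNA of the cluster to the next in every library, with *Rian* at 0.230 to 0.274 and *Mirg* at 0.0215 to 0.0330 of the TPM of *Meg3*. The ratio of *Rian* to *Meg3* was close to constant within a genotype, a description added after the values were seen. An exact permutation test of its TPM gave p = 0.1 for each pair of genotypes. That is the smallest p such a test can give with 3 against 3 libraries, so it cannot decide the question. Among +/+ libraries it was 0.233 ± 0.00333, among Cre/+ libraries 0.263 ± 0.00941 and among Cre/Cre libraries 0.250 ± 0.00210 (SD, n = 3 each), and no library of one genotype fell within the range of another. How often the ratios of other gene pairs separate in this way was not computed. In read coverage the ratio was 0.293 to 0.294 in +/+, 0.315 to 0.341 in Cre/+ and 0.310 to 0.316 in Cre/Cre. Both knock-in genotypes were thus again above +/+ but overlapped each other. The exact permutation test of the coverage ratio gave p = 0.1 for each knock-in genotype against +/+ and p = 0.2 between them. *Meg3* has 3 RefSeq transcripts and a coverage share of 0.782 to 0.815.

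**Figure D4:**
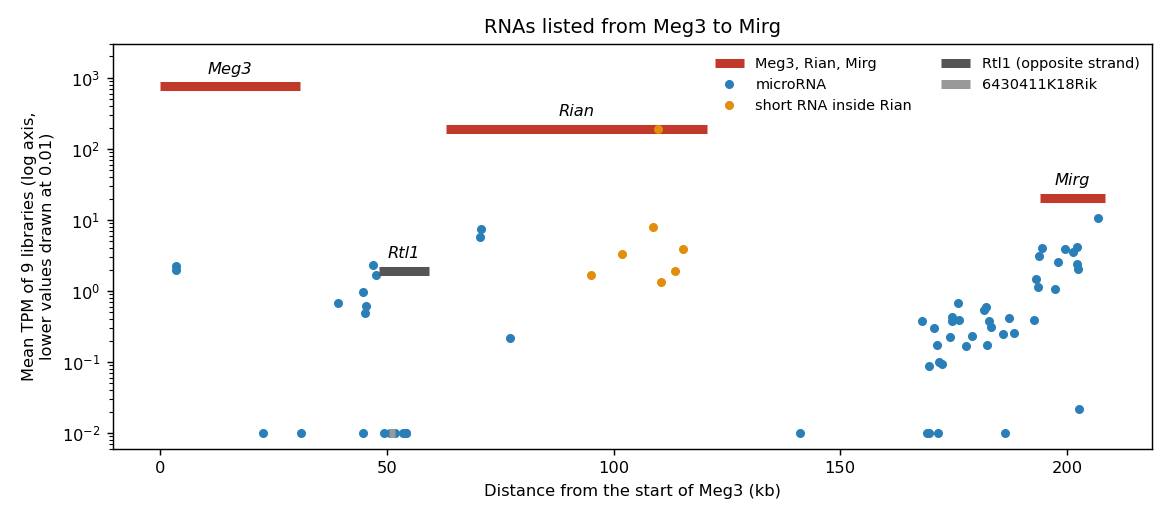
Mean TPM of 9 libraries on a log axis against the distance from the start of *Meg3* in kb, for every row of the tables between *Meg3* and the end of *Mirg*; bars span a gene of over 1 kb, points mark short RNAs, and values under 0.01 TPM are drawn at 0.01. *Meg3*, *Rian* and *Mirg* stand above nearly all microRNA rows, and 1 short RNA inside *Rian* lies at the level of *Rian*.

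The cluster is known for its small RNAs, which poly(A) selection does not capture in mature form. Of 61 microRNA rows between *Meg3* and the end of *Mirg*, 13 were at 0 in all libraries and 18 had a mean of at least 1 TPM. The highest were *Mir3072* inside *Mirg* with 10.7 TPM and *Mir1188* inside *Rian* with 7.55 TPM. Reads over such rows can come from the long host RNA, so these are no levels of mature microRNA. The RefSeq mature microRNAs of *Mir3072* and *Mir1188* are shown, with the seed (bases 2 to 8), which pairs with target RNAs, in capitals.
mmu-miR-3072-5p: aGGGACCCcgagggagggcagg
mmu-miR-3072-3p: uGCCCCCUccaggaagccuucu
mmu-miR-1188-5p: uGGUGUGAgguugggccagga
mmu-miR-1188-3p: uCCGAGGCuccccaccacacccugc

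The 4 seeds differ from each other. Over the plus strand of the span RefSeq lists 105 mature microRNAs with 97 distinct seeds, and 8 seeds are held by more than 1, among them that of miR-376b-5p and miR-376c-5p. Of 7 short RNA rows inside *Rian*, *AF357359*, a row of 30 bases, had 149 to 217 TPM and followed *Rian* at a ratio of 0.827 to 1.12. The protein-coding genes of the cluster were low next to these RNAs, as *Dlk1* had 0.0704, *Rtl1* 1.93 and *Dio3* 1.02 TPM on average. The 4 of 5 tested gave 0 calls, with medians of 0.04 in both genotypes, and *Begain*, a gene of a synaptic protein beside the cluster, had 56.1 ± 4.66 TPM in +/+ and 47.6 ± 2.06 in Cre/+ (limma adjusted p = 0.397).

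*Snhg11*, rich in neurons, had 823, 754 and 691 TPM in +/+, 819, 814 and 848 in Cre/+, and 615, 774 and 807 in Cre/Cre. Each knock-in genotype overlapped +/+, with a log2 fold change of 0.13 ± 0.10 (95% interval -0.07 to 0.34) in Cre/+ and -0.05 ± 0.10 (-0.26 to 0.15) in Cre/Cre. All Cre/Cre libraries lay below all Cre/+ libraries, as in 7.23% of tested genes (log2 difference -0.19 ± 0.10, limma adjusted p = 0.740). Its nearest tested genes, *Snhg17* and *Ralgapb*, were not called. Over all 10 RNAs, 39 other tested genes were the nearest on either side or overlapped one of them, 0 were called in either genotype, and 2 in Cre/+ and 5 in Cre/Cre had an unadjusted p under 0.05. Of the 15198 tested genes 1628 and 1059 had such a p. The lowest p among the 39 in both genotypes was that of *DQ267100*, a short RNA row of 71 bases inside *Rian* with mean TPM of 10.5, 6.95 and 6.54 for +/+, Cre/+ and Cre/Cre (limma adjusted p = 0.355 and 0.394).

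Some of these RNAs varied together over the 9 libraries, as a description without a test, since libraries share depth and composition. *Rian* and *Snhg11* had the highest Pearson r of the 45 pairs, 0.914, or 0.837 without Cre/Cre replicate 1. *Meg3* and *Six3os1* had 0.891, or 0.697 without it. The genes of at least 10 TPM most like *Rian* were *Pak3*, *Dgkh* and *Canx* (r = 0.993, 0.991 and 0.988), and those most like *Tug1* were *Mospd2*, *Orc3* and *Rb1cc1* (0.997, 0.987 and 0.980). Most like *Snhg11* were *Lin7a*, *Hnrnpu* and *Gprasp1* (0.993, 0.991 and 0.990), most like *Six3os1* were *Rgs4*, *Sh3bgrl2* and *Mfsd6* (0.986, 0.973 and 0.973), and most like *Meg3* were *1700025G04Rik*, *B230217C12Rik* and *Trarg1* (0.971, 0.969 and 0.968, or 0.930, 0.922 and 0.904 without Cre/Cre replicate 1). *Mirg* was most like *Palld*, *Fam107a* and *Rhpn2* (0.940, 0.937 and 0.918). *Vax2os* had no close match, with *Cxcl12*, *1110012L19Rik* and *Rpf1* at 0.839, 0.800 and 0.799. Each is the highest of 10867 genes searched.

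**Figure D5:**
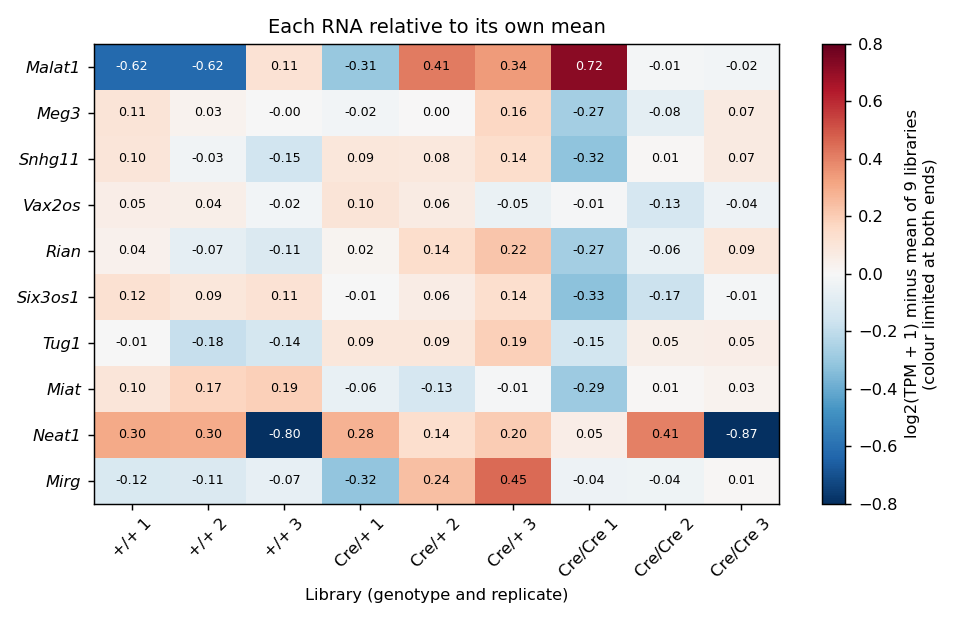
Heat map of log2(TPM + 1) of each RNA minus its mean over the 9 libraries, with RNAs in rows, libraries in columns, the value in each cell and the colour scale limited at both ends. The column of Cre/Cre 1 is low for *Meg3*, *Snhg11*, *Rian*, *Six3os1* and *Miat* and high for *Malat1*, and *Neat1* is low in +/+ 3 and Cre/Cre 3.

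Cre/Cre replicate 1 shaped several of these values. In that library 5 of the 10 RNAs, *Meg3*, *Rian*, *Miat*, *Snhg11* and *Six3os1*, were at the lowest level of all 9 libraries, and *Malat1* was at its highest. Among all tested genes 38.7% had their lowest value there. Relative to the mean of the other Cre/Cre libraries, *Snhg11* stood at 77.7%, *Miat* at 80.5%, *Rian* at 81.7%, *Meg3* at 82.9% and *Six3os1* at 84.5%, beside 89.2% for the median tested gene, while *Vax2os* stood at 106% and *Malat1* at 167%. Leaving this library out changed the sign of *Rian* and *Snhg11* in Cre/Cre, to 0.06 and 0.07, and still gave 0 of 10 called.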

How the data were processed

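RNA was taken from whole retinas, a pair per library. The authors made strand-specific poly(A)-selected libraries and sequenced paired reads of 150 bases. They used Trimmomatic for trimming and HISAT2 for alignment (mm10), and obtained gene values from StringTie. Values of their own DESeq2 comparison are not used here. Tool versions and the annotation are not given in the sources used here. Deposited per library were TPM, which sums to 1000000 in each library, FPKM, fragments scaled by transcript length and library size, and coverage, the read depth averaged along the gene. The tables hold no counts, so a count test was not run, counting error per gene is not known, and the spread between libraries set the precision. Rows sharing a gene name were added up in TPM, except in the description of the *Meg3* to *Mirg* span, where rows were taken singly. The 10 RNAs and the gene lists were chosen with earlier results of these data known.

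Genes with a mean of at least 1 TPM over 9 libraries (15198 of 25239) entered 1 model of log2(TPM + 1) with genotype as the only term, fitted by limma 3.58.1 (trend, robust prior; R 4.3.3). Fold changes are on that scale, and p-values were adjusted over all tested genes by the Benjamini-Hochberg method. The script was tested on simulated data. Groups and replicate numbers came from the labels. Coverage share was coverage divided by FPKM and by the library's aligned gigabases. It was within 0.01 of 1 in 99.7% to 99.9% of genes with 1 RefSeq transcript and in 52.0% to 52.5% of genes with more. Transcript lengths of *Neat1* came from GENCODE M21, and promoters and microRNAs from RefSeq (GRCm38.p6).

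Named are the 10 RNAs, *Rbpms*, *Six3* and *Vax2*, list genes that were called or among the 3 highest of their list, genes nearest to or overlapping the 10, short RNAs of the *Meg3* to *Mirg* span, and the 3 genes of at least 10 TPM with the most similar pattern. Other list genes are named for an unadjusted p under 0.05, or for their level in the *Dlk1* to *Dio3* region, and were chosen after their values were seen, as was the ratio of *Rian* to *Meg3*. Replicate numbers were checked for pairing by the correlation, over genes, of deviations from the genotype mean. It ran from -0.12 to 0.13 over the 9 pairs with the same number, and 1 pair was over 0.1, so numbers were not taken as pairs. One gene that the rule names is not reported here.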

Additional observations from a re-analysis of the deposited data

How the results depend on the processing

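Under all 20 alternative settings 0 of the 10 RNAs were called in any comparison, and the smallest adjusted p (limma) of any of them was 0.150. Of 400 log2 fold changes of single RNAs 376 kept their sign and side of the threshold and 24 changed sign; the cause was not tested. In Cre/+ *Neat1* was -0.0891 with coverage rescaled to the same sum in every library, an alternative chosen after seeing the data. In the same genotype *Meg3* was -0.0190 with *Xist* as a covariate, -0.0230 with FPKM and -0.0032 with median-ratio scaling. There *Six3os1* was 0.0134 with the rescaled coverage, and *Vax2os* was -0.0132 with FPKM. In reads over each base per aligned gigabase *Six3os1* averaged 12.2 in +/+ and 12.1 in Cre/+. In Cre/Cre *Neat1* was 0.19 with *Xist* as a covariate and 0.0395 with coverage, *Rian* was 0.0189 without RNAs that lack a poly(A) tail, and *Mirg* was -0.0917 with *Xist*. Leaving out each library in turn gave ranges in Cre/+ of -0.10 to 0.46 for *Neat1*, -0.0553 to 0.0379 for *Meg3*, 0.0626 to 0.45 for *Mirg* and -0.0193 to 0.0571 for *Vax2os*, and in Cre/Cre of -0.44 to 0.30 for *Neat1*, -0.22 to -0.0459 for *Meg3*, -0.12 to 0.0646 for *Rian* and -0.13 to 0.0681 for *Snhg11*. With the replicate block 0 of 10 were called; the numbers were not taken as pairs, since 1 of 9 pairs correlated above 0.1 and 5 of 18 library comparisons were highest for the same number. edgeR and DESeq2 were not run, as the tables hold no counts, and the depth behind a single value is unknown.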

Other observations

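Of 59 other long noncoding RNAs in a list chosen with earlier results of these data known, 54 were in the tables and 47 were tested. None was called in either knock-in genotype against +/+ by limma, and at an unadjusted p under 0.05 there were 5 higher and 1 lower in Cre/+ and 1 higher in Cre/Cre. The median log2 fold change of the 47 was 0.05 in Cre/+ and 0.02 in Cre/Cre, beside 0.00 and -0.02 over all tested genes. The most abundant was *Mir124a-1hg*, a host gene of the neuronal microRNA miR-124, with mean TPM of 1416 ± 57.0, 1492 ± 2.68 and 1383 ± 68.0 for +/+, Cre/+ and Cre/Cre (SD, n = 3 each). The first is above the level of *Malat1* in +/+. *Xist* and *2900097C17Rik* followed, with 364 and 299.5 TPM on average. *Gas5*, a host of small nucleolar RNAs, had 249 ± 5.08, 269 ± 4.30 and 247 ± 21.0 TPM, and the imprinted RNA *Peg13* had 223 ± 1.59, 235 ± 23.2 and 224 ± 15.5 TPM.

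A second miR-124 host gene, *Mir124-2hg*, had 211, 210 and 189 TPM in +/+ and 249, 226 and 236 TPM in Cre/+, higher without overlap, as in 11.9% of tested genes (log2 fold change 0.22 ± 0.09, limma adjusted p = 0.405). *Mir17hg*, the host of the miR-17 to miR-92a microRNAs, had 9.29 ± 1.33 TPM in +/+ and 12.7 ± 0.657 in Cre/+ (limma adjusted p = 0.404). *Epb41l4aos* had 32.1 ± 1.66 TPM in +/+ and 38.5 ± 1.98 in Cre/Cre (limma adjusted p = 0.655). The last 3 were chosen after their values were seen.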
